A study of Macaca mulatta with 8 samples.

Results

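Cytotoxic granule genes were followed cell by cell in sorted CD4+ T cells of rhesus macaque blood. The set held 10 genes, chosen by symbol: the granzymes GZMB, GZMM, GZMA and GZMK, the granule proteins GNLY, NKG7 and CST7, the receptor KLRB1, the chemokine CCL4L1 and the signalling adaptor TYROBP. All 10 were found among the 16429 genes of the deposited count table. The gene table named 9 of them, and CCL4L1 (ENSMMUG00000020102) was named from a RefSeq gene table.

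Cytotoxic T cells and natural killer (NK) cells store granzymes, which are serine proteases, in secretory granules together with membrane-lytic proteins, and release them onto a target cell. CD4+ T cells are best known as helper and regulatory cells, but effector CD4+ cells can carry the same granules, and regulatory T cells (Tregs) can make granzymes too. KLRB1, also called CD161, marks memory and innate-like T cells, and TYROBP, also called DAP12, passes on the signals of activating receptors in NK and myeloid cells.

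Peripheral blood mononuclear cells were cryopreserved, thawed on one day, enriched for CD4+ cells with an immunomagnetic kit and sorted. Of the 4 sorted populations, CFSEpos cells carried the dye CFSE and are the transferred Tregs of the series title. Endo cells were CD3+CD4+CD25hiCD127lo, the surface phenotype of the host's own Tregs. CD127posCD25pos cells were CD3+CD4+CD25posCD127pos, and CD127posCD25neg cells were CD3+CD4+CD25negCD127pos, the phenotype of conventional CD4+ T cells. Each population was sampled on day 3 and day 20, giving 8 libraries of single cells. The labels name no animal, age or drug treatment, and each population and day has 1 library, so no condition is replicated and no test between conditions was made. A fit over all 8 libraries with population and day as terms was not run. The intervals below are exact 95% intervals that cover counting error only.

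Levels are given as CPM, the UMIs of a gene per 1000000 UMIs. The table held 25397 cells and 67627231 unique molecular identifiers (UMIs, counted mRNA molecules). Library totals ran from 2992787 to 12149559 UMIs and median depth from 2131 to 3095 UMIs per cell. FOXP3, the Treg transcription factor, read 259 and 127 CPM in the CFSEpos libraries of days 3 and 20, 76.0 and 67.8 in Endo, 17.3 and 16.9 in CD127posCD25pos, and 0.530 and 0.246 in CD127posCD25neg. CD4 mRNA was nearly undetected everywhere, at 3.47 to 7.29 CPM, so the CD4 label could not be checked by this gene, while CD8A read at most 2.67. Of the cell barcodes, 382 occurred in more than 1 library, in 767 cells. The authors placed the cells in 10 clusters, in 3 classes (Tconv, endoTreg, transTreg) and, for 7515 cells, in 7 finer classes. Those clusters were built from these same cells, so values by cluster are descriptions.

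The granule genes were highest in the CD127posCD25neg cells. GZMB (ENSMMUG00000014381), the granzyme best known for triggering apoptosis, read 682 CPM in CD127posCD25neg on day 3 and 742 on day 20. In CFSEpos it read 26.2 and 32.4, in Endo 23.9 and 45.9, and in CD127posCD25pos 7.82 and 16.5. The lowest CD127posCD25neg value thus lay far above the highest value elsewhere. A GZMB UMI was seen in 20.9% of CD127posCD25neg cells on day 3 (interval 19.4 to 22.4) and 18.5% on day 20 (17.3 to 19.8). In the other 6 libraries the share was 0.610 to 3.02%.

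NKG7 (ENSMMUG00000015369) is a granule membrane protein needed for efficient granule release. It read 179 and 157 CPM in CD127posCD25neg on days 3 and 20, against 19.4 and 6.68 in CFSEpos, 15.9 and 13.4 in Endo, and 11.3 and 9.72 in CD127posCD25pos. GNLY (ENSMMUG00000047204), granulysin, is a membrane-lytic granule protein. It read 178 and 179 in CD127posCD25neg, 66.9 and 63.5 in CFSEpos, 49.6 and 56.4 in Endo, and 24.5 and 45.9 in CD127posCD25pos. Its gap between populations was smaller than that of GZMB, and it was the one gene of the set above 50 CPM in both CFSEpos libraries.

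KLRB1 (ENSMMUG00000044047) read 155 and 136 CPM in CD127posCD25neg on days 3 and 20, 17.6 and 37.1 in CFSEpos, 20.02 and 25.5 in Endo, and 19.6 and 34.6 in CD127posCD25pos. TYROBP (ENSMMUG00000008004) read 74.6 and 75.7 in CD127posCD25neg, 4.03 and 4.01 in CFSEpos, 15.5 and 18.5 in Endo, and 13.6 and 16.4 in CD127posCD25pos. GZMM, CST7 and CCL4L1 also had their highest values in the CD127posCD25neg libraries. GZMM (ENSMMUG00000045966), a granzyme of innate lymphocytes, read 71.1 and 72.3 there and 10.5 to 21.0 elsewhere. CST7 (ENSMMUG00000005757), the cathepsin inhibitor cystatin F, read 91.5 and 87.4 against 9.28 to 26.3. CCL4L1, a chemokine of the CCL4 type, read 72.0 and 73.4 against 3.24 to 8.36; near-identical CCL4-type copies, if present, could share its reads.

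GZMK (ENSMMUG00000020171), the granzyme of less differentiated memory T cells, was low in every library. It read 14.8 and 26.5 CPM in CD127posCD25neg on days 3 and 20, 11.5 and 7.35 in CFSEpos, 1.02 and 0.456 in Endo and 0.224 and 1.62 in CD127posCD25pos. GZMA (ENSMMUG00000001597), a tryptase-like granzyme, was scarce and was highest in Endo on day 20, at 21.6 (interval 18.2 to 25.4), against 1.48 in Endo on day 3, 2.12 and 4.67 in CD127posCD25neg, 0.894 and 6.10 in CD127posCD25pos, and 0.741 and 0.668 in CFSEpos.

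**Figure D1:**
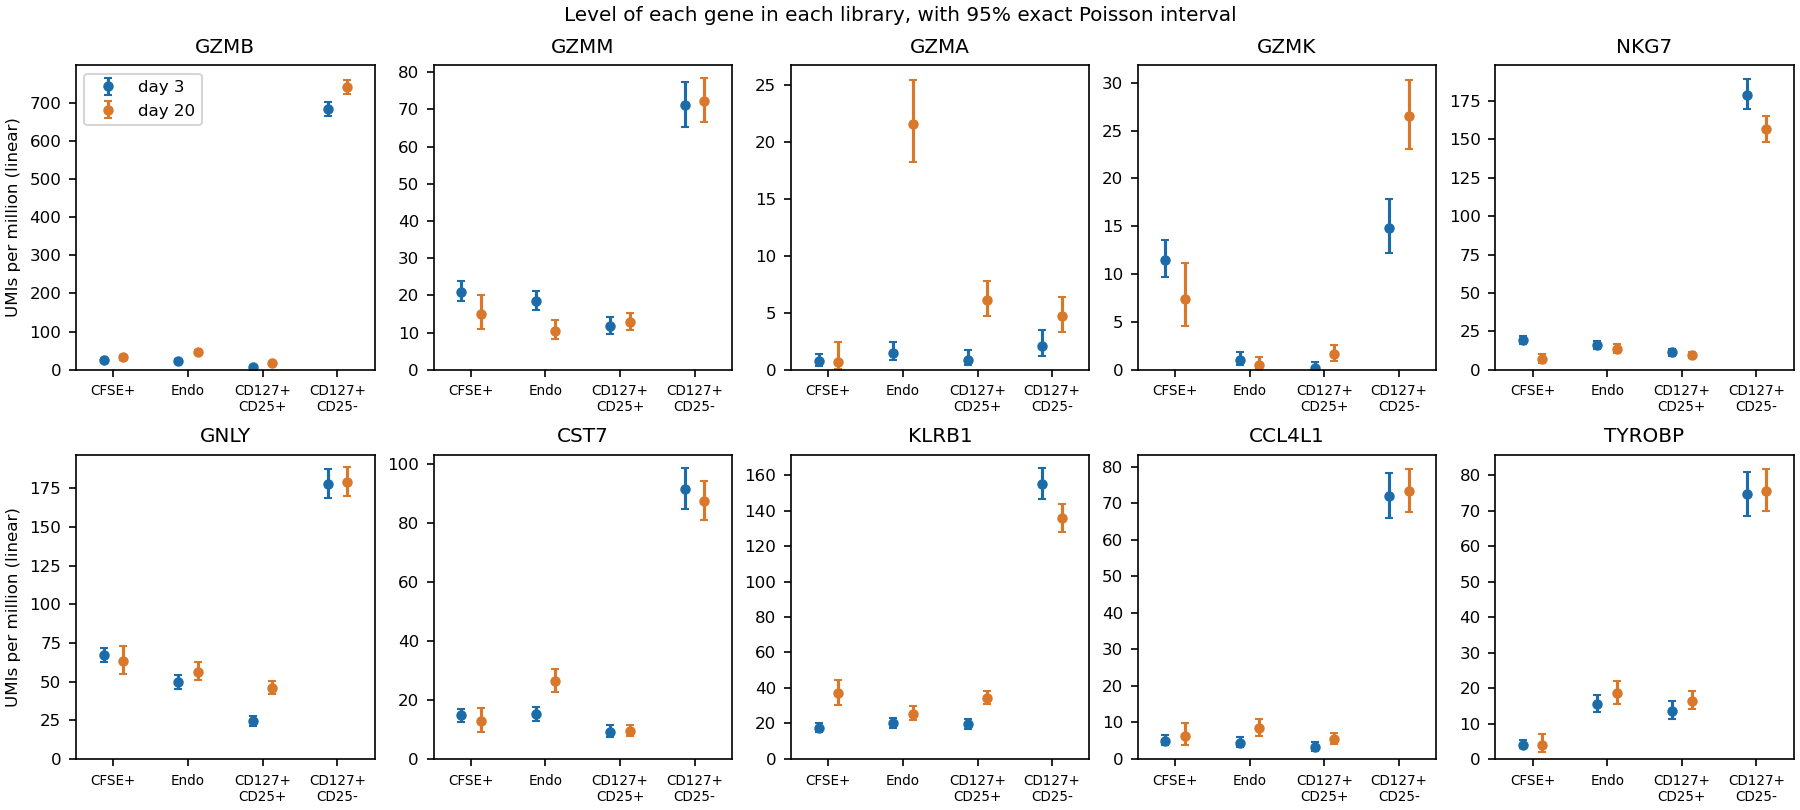
CPM (y axis, linear, a scale of its own in each panel) of each of the 10 genes in the 4 sorted populations on day 3 and day 20, with exact 95% Poisson intervals. The CD127posCD25neg libraries (right) are the highest for 9 of the 10 genes, and GZMA is highest in Endo on day 20 (21.6).

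Ratios were taken as the log2 ratio of CPM after adding 10, which understates the difference of low genes. A gene was tested where 1 of the compared libraries reached 50 CPM on each day, and called where it differed by 2-fold or more in one direction on day 3 and again on day 20. In CFSEpos, 8 of the 10 genes were called lower than in CD127posCD25neg (all but GZMA and GZMK, which were under 50), where 1.62% of the 1913 tested genes were, and none was called higher (1.78% of genes). In Endo the same 8 were called lower (0.684% of 1755 genes) and in CD127posCD25pos again those 8 (0.604% of 1657). The 3 comparisons share the CD127posCD25neg libraries. The call of GZMM in CFSEpos ended with 30 CPM added (log2 ratios of -0.99 and -1.18), and that of CST7 in Endo ended within the authors' matching classes (-1.52 and -0.83). Apart from GNLY in CFSEpos, these genes passed the 50 threshold on both days through CD127posCD25neg only, so being tested and being lower are not independent. These ratios of summed counts do not separate fewer cells with a gene from less RNA of it per cell. For GZMB the share of cells differed too, at 20.9% and 18.5% in CD127posCD25neg against 0.610 to 3.02% in the other libraries.

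The median log2 ratio of the 8 genes to CD127posCD25neg was -2.51 on day 3 and -2.23 on day 20 in CFSEpos. The medians over all tested genes were 0.48 and 0.11. These 8 were the genes called lower, and all but GNLY were tested through CD127posCD25neg only, so the gap partly follows from that choice. The genes left out had log2 ratios to CD127posCD25neg of -0.17 and -0.46 (GZMA) and -0.21 and -1.07 (GZMK). GZMB was lowest by this ratio, with log2 ratios of -4.26 and -4.15 in CFSEpos, -4.35 and -3.75 in Endo, and -5.28 and -4.83 in CD127posCD25pos. GNLY differed less, at -1.29 and -1.36 in CFSEpos, -1.66 and -1.51 in Endo, and -2.45 and -1.76 in CD127posCD25pos. TYROBP read -2.59 and -2.61 in CFSEpos but -1.73 and -1.59 in Endo. Between the 2 Treg populations, GNLY alone was tested, with log2 ratios of CFSEpos over Endo of 0.37 and 0.15, and no gene was called (1.24% of 1851 genes were called lower and 0.378% higher). Over CD127posCD25pos no gene was called in CFSEpos (0.945% of 1904 genes were higher and 1.31% lower), where again GNLY alone was tested, or in Endo (0.349% of 1718 genes higher and 0.0582% lower), where none was. No gene of the set was called higher in CD127posCD25pos than in CD127posCD25neg (0.121% of genes). Between day 20 and day 3 GNLY alone was tested in CFSEpos and in Endo (log2 ratios of -0.07 and 0.16, not called) and no gene in CD127posCD25pos. GZMA in Endo, under 50 CPM, had a log2 ratio of 1.46. In CD127posCD25neg 8 were tested and none was called, with log2 ratios from -0.18 to 0.12 (0.0572% of genes were called higher and 0.114% lower). The shares of all genes called higher and lower on day 20 were 4.09 and 3.1% in CFSEpos, 2.54 and 0.324% in Endo, and 0 and 0.112% in CD127posCD25pos.

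Inside the CD127posCD25neg libraries the genes were concentrated in the authors' cluster 5. It held 549 of the day 3 cells (18.1%, interval 16.7 to 19.5) and 612 of the day 20 cells (16.6%, 15.5 to 17.9), but 0.0724 to 0.640% of the other libraries. Of the GZMB UMIs, 94.8% on day 3 and 92.9% on day 20 came from cluster 5. The corresponding shares were 92.7 and 90.5% for NKG7, 95.6 and 93.8% for CCL4L1, 89.1 and 88.2% for CST7, 84.6 and 84.7% for GNLY, and 84.3 and 83.0% for KLRB1. GZMM was split, with 51.9 and 49.1% in cluster 5, and so was GZMK, with 44.6 and 31.5%. TYROBP UMIs lay mostly elsewhere, with 18.8 and 10.7% in cluster 5. Its level in cluster 5 was 108 and 67.1 CPM, beside 74.6 and 75.7 in the whole libraries.

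Cluster 5 cells were shallow, with median depths of 1618 and 1522 UMIs on days 3 and 20, yet nearly every one showed GZMB, in 96.2% and 95.4% of cells. The median cell held 8 GZMB UMIs on day 3 and 9 on day 20. The level of GZMB was 4962 CPM (interval 4824 to 5103) and 5704 (5555 to 5855). NKG7 was next in share, in 84.3% and 79.2% of cells at 1274 and 1172 CPM. KLRB1 was seen in 68.3% and 60.1% of cells, CST7 in 64.1% and 61.6%, GNLY in 62.3% and 64.1%, and CCL4L1 in 57.2% and 56.5%. GZMM reached 37.2% and 35.6%, while TYROBP was in 10.6% and 7.19% and GZMK in 2.37% and 2.29%. Most cluster 5 cells thus had GZMB and NKG7, and few had GZMK or TYROBP. Between the days no gene of the set was called within cluster 5 (0.0894% of 2238 genes were called higher and 0.268% lower).

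The levels outside cluster 5 were set against the cells least likely to make these proteins. Cluster 6 of CD127posCD25neg was rich in naive-cell transcripts (LEF1, a transcription factor of naive T cells, read 260 and 282 CPM on days 3 and 20, against 30.5 and 12.2 in cluster 5). GZMB was seen in 3.68% of its cells on day 3 and 2.56% on day 20, at median depths of 2574 and 2372 UMIs. There were 3.25 and 4.33 GZMB UMIs for each NKG7 UMI in cluster 6, and 3.90 and 4.86 in cluster 5. In endogenous naive Tregs, a finer class of the authors with a median depth of 2966 UMIs, GZMB read 2.65 and 2.62 CPM in Endo. For each GZMM UMI there were 1.02 and 0.907 GZMB UMIs in cluster 6 and 17.6 and 19.4 in cluster 5. No expression was read from GZMB shares at or below those of cluster 6 in these libraries, and the part of free RNA was not measured.

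Leaving cluster 5 out of every library, an alternative added after the data were seen, ended nearly all calls. By construction, fewer genes of the set then reached the threshold (2 in CFSEpos, 1 in Endo and 1 in CD127posCD25pos). Most calls therefore ended because the gene was no longer tested. In each of the 3 comparisons with CD127posCD25neg 1 gene, TYROBP, was then still called lower. GNLY turned to higher in CFSEpos, with log2 ratios of 0.88 and 0.69.

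**Figure D2:**
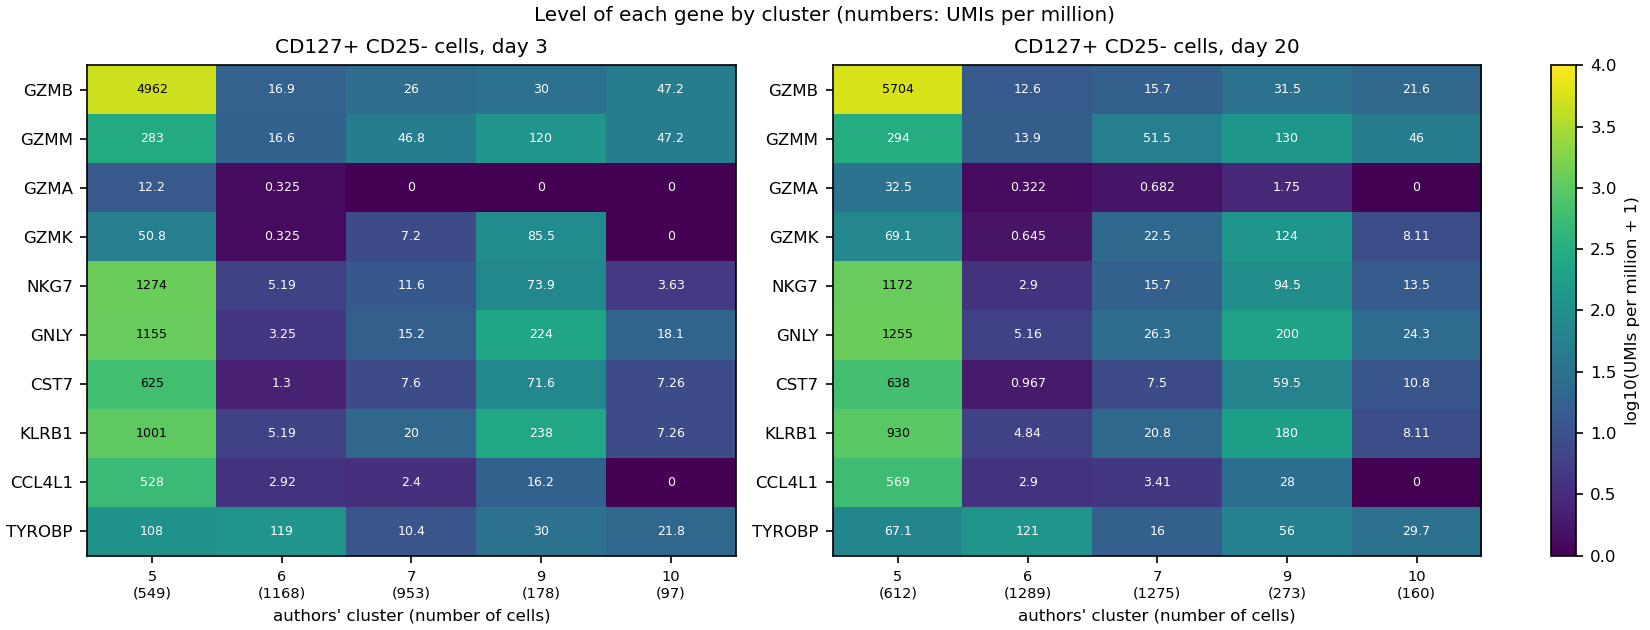
CPM of each gene (rows) in the authors' clusters of at least 50 cells (columns, with cell numbers) of the CD127posCD25neg libraries on day 3 and day 20. Colour is log10(CPM + 1). Cluster 3, with 29 and 33 cells, is not drawn. GZMB is 4962 and 5704 in cluster 5 and 30.02 and 31.5 in cluster 9, GZMK is highest in cluster 9, and TYROBP is at 119 and 121 in cluster 6.

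The genes occurred together in single cells. At least 3 of the 10 had a UMI in 19.1% of CD127posCD25neg cells on day 3 (579 cells, interval 17.7 to 20.5) and 18.1% on day 20 (666 cells, 16.9 to 19.4). In the other 6 libraries the share was 0.746 to 2.05%. With every cell thinned to 1000 UMIs, which removes differences in depth and left out 17 CFSEpos, 6 CD127posCD25pos and 6 CD127posCD25neg cells below that depth, the shares were 16.4% and 15.5% against 0.194 to 0.726%. At least 5 genes were seen in 11.9% and 9.52% of CD127posCD25neg cells and in 0.0483 to 0.726% elsewhere. The limit of 3 is a range and not a cell type: 117 and 103 CD127posCD25neg cells had exactly 2 genes, and 86 and 118 had exactly 3.

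Of the cells with at least 3 genes in CD127posCD25neg, 533 of 579 on day 3 and 590 of 666 on day 20 belonged to cluster 5. Over all libraries, 96.3% of cluster 5 cells had at least 3, compared with 5.26% in cluster 3, 3.48% in cluster 9 and at most 0.896% in any other cluster. Cluster 4, a deep cluster of few granule transcripts with a median depth of 2924 UMIs, had 0.143%. The Treg classes split as well: 5.59% of 912 endogenous effector Tregs had at least 3 genes, and 0 of 1271 endogenous naive Tregs had, which allows a share of up to 0.236% by 3 cells of the total (exact interval up to 0.290%). Thinned to 1000 UMIs, the shares were 0.768% in the effector class, 1.16% in cluster 3, 1.90% in cluster 9 and 86.3% in cluster 5.

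**Figure D3:**
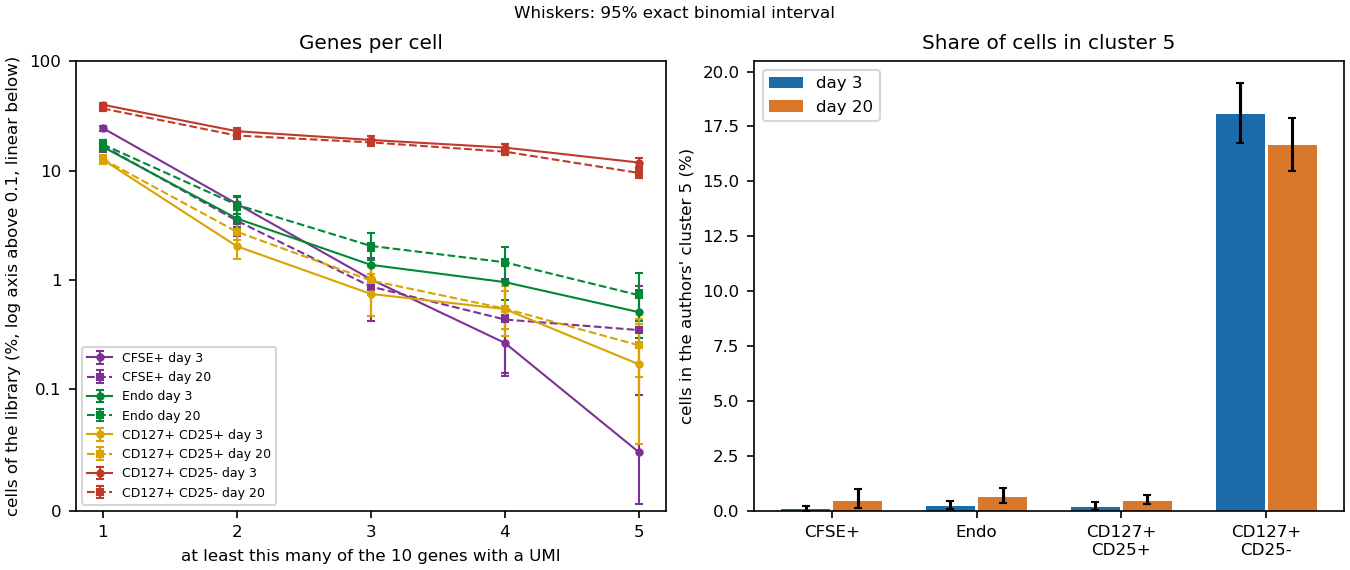
Left, percent of cells of each library (y axis, log above 0.1) with a UMI of at least 1 to 5 of the 10 genes (x axis); right, percent of cells in the authors' cluster 5, both with exact 95% binomial intervals. The CD127posCD25neg libraries hold 19.1% and 18.1% of cells with at least 3 genes and 18.1% and 16.6% in cluster 5; the other 6 libraries hold at most 2.05% and 0.640%.

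Pairs showed how often the genes were seen in the same cells. In cells thinned to 1000 UMIs, NKG7 was found in 67.8% of GZMB-positive CD127posCD25neg cells on day 3 (interval 63.7 to 71.7) and 61.8% on day 20 (57.9 to 65.6), but in 1.89% and 1.97% of GZMB-negative cells. CCL4L1 was found in 36.7% and 41.3% of GZMB-positive cells and in 0.805% and 0.951% of the others. GNLY read 46.5% and 49.1% against 2.58% and 2.66%, KLRB1 51.5% and 47.4% against 2.62% and 2.66%, and CST7 45.4% and 43.8% against 1.93% and 1.48%. GZMM, at 21.0% and 23.9% against 4.11% and 3.90%, showed a smaller gap. TYROBP did not follow GZMB: 7.05% and 5.46% of GZMB-positive and 5.27% and 5.35% of GZMB-negative cells had it, and the intervals overlapped on both days. In all, 23 of the 45 pairs on day 3 and 22 on day 20 were seen in at least 50 CD127posCD25neg cells, and no pair reached 50 cells in any other library, where thinning left 10 to 60 GZMB-positive cells. NKG7 was also more frequent with GZMB on day 20, in 10 of 25 cells against 0.826% in CD127posCD25pos and 10 of 30 against 0.735% in Endo. Cluster 5 cells held 76.3% and 60.3% of the GZMB UMIs of these libraries, and their part in the pairs was not tested. In CFSEpos on day 3, NKG7 was in 4 of 60 cells with GZMB (interval 1.85 to 16.2%) against 1.87% (1.48 to 2.33), with overlapping intervals.

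Within cluster 5 the shares lay closer together. Thinned to 1000 UMIs, 41 cells on day 3 and 36 on day 20 lacked GZMB. NKG7 was still more frequent with GZMB, in 73.2% of cells (interval 69.2 to 77.0) against 53.7% (37.4 to 69.3, just overlapping) on day 3 and in 66.6% (62.5 to 70.4) against 41.7% (25.5 to 59.2) on day 20. GNLY went the other way, in 49.4% with GZMB against 61.0% without on day 3 and 52.3% against 63.9% on day 20, with overlapping intervals. GZMM also did, in 22.2% against 34.1% and in 25.6% against 41.7%, again with overlap. For CST7 the shares were 49.2% against 48.8% on day 3 and 46.7% against 36.1% on day 20.

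**Figure D4:**
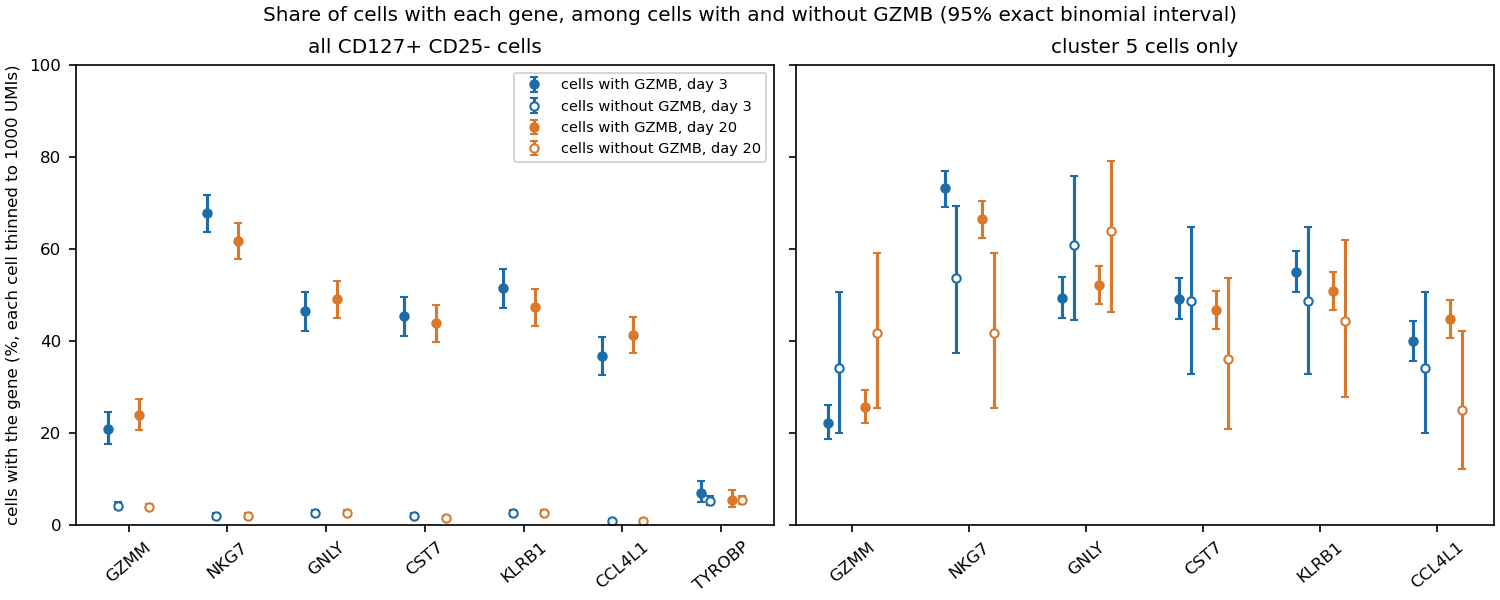
Percent of cells with each gene seen together with GZMB in at least 50 cells (y axis, cells thinned to 1000 UMIs) among cells with GZMB (filled) and without (open), for all CD127posCD25neg cells (left) and cluster 5 alone (right), with exact 95% binomial intervals. On the left every gene plotted but TYROBP is far more frequent with GZMB (NKG7 67.8% against 1.89% on day 3); on the right the gaps shrink and GNLY and GZMM are more frequent without GZMB, with overlapping intervals.

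Cells with at least 3 of the genes were compared with the CD127posCD25neg cells that had none (1822 on day 3, 2317 on day 20), for genes outside the set. Of all 1996 tested genes, 9.82% were called higher and 1.55% lower on both days. Of the list of other cytotoxic effectors and surface molecules, all 5 tested genes of 14 were called higher. CX3CR1, the fractalkine receptor of cytotoxic effector cells, read 192 CPM against 0.210 on day 3 and 242 against 0.557 on day 20. GZMH, a further granzyme, read 111 against 0.210 and 78.0 against 0.186. The other calls were ADGRG1 and KLRD1, surface receptors of cytotoxic lymphocytes, and CD2, an adhesion receptor. All of these but CD2 reached 50 CPM in the granule-rich cells only, so for them being tested and being higher are not independent. GZMB and GZMH are neighbours in the genome and similar in sequence, as are GZMA and GZMK next to each other, and how the authors' counting divided reads between such copies is not stated.

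Of the list of effector transcription factors, 7 of 11 were tested and all 7 were called higher. TBX21, also called T-bet and the master regulator of type 1 effector cells, had log2 ratios of 3.43 and 3.71 with 116 and 138 CPM. HOPX, a marker of terminal effector T cells, read 862 against 21.6 and 857 against 23.2. ZEB2, a factor of terminal differentiation, read 105 against 0.630 and 91.6 against 0.557, and PRDM1, RUNX3, ID2 and BHLHE40 were the others. All but ID2 were likewise tested through the granule-rich cells only, as were SERPINB9 and TNFRSF18 below. Of the naive and quiescence list, 5 of 10 genes were tested, none was called higher, and TCF7 (39.1 against 199 on day 3) and LEF1 (34.4 against 276) were among those called lower.

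Of the granule assembly and release list, 5 of 16 were tested and 3 were called higher, SERPINB9, the intracellular inhibitor of GZMB, and the lysosome membrane genes LAMP1 and CD63. The excess was smaller than for the cargo, with LAMP1 at log2 ratios of 1.05 and 1.01 and SERPINB9 at 1.64 and 1.46. Of the TYROBP and DAP10 list, HCST, which encodes DAP10, the adaptor of NKG2D, was 1 of 2 tested and read 1281 against 239 and 1295 against 250. Of the effector cytokine list, LTB, lymphotoxin beta, was the single gene tested and was called lower (626 against 1561 and 553 against 1686). The Treg core list had 1 tested gene, TNFRSF18 (GITR), which was called higher (78.1 against 17.01 and 65.3 against 17.8). No gene of the type 17 and innate-like list reached the threshold.

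Of the markers of other cytotoxic lymphocytes, some were higher in cluster 5 and others were at 0. In cluster 5 of CD127posCD25neg the 11 NK cell markers found summed to 226 CPM on day 3 and 208 on day 20, with 6 and 8 of them detected, beside 38.7 and 35.1 over the whole libraries and 8.05 to 38.2 in the other 6. NCR1, KLRF1, KLRC3, KLRD1 and FCGR3 were among those detected in cluster 5 on both days. NCAM1, FCER1G and CD160 were at 0 there on both days. KLRC1 and SH2D1B were at 0 on day 3 and detected on day 20. The CD8 T cell list summed to 124 and 94.6 with 2 and 3 of 4 found genes detected, most of it GZMH (122 and 87.4). CD8A had no UMI in these 1161 cells (interval up to 1.88 CPM). CD8B was at 0 on day 3 and detected on day 20. The T cell list summed to 2979 and 3044, above the library values of 1940 and 2042. None of the 6 gamma delta T cell genes is in the count table, so alpha beta and gamma delta cells cannot be told apart. Monocyte markers summed to 4.07 and 14.2, dendritic cell markers to 7.12 and 13.2, and B cell markers to 4.07 on each day. The part of NK or CD8 cells in the result was not tested.

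Cluster 9 had a second, different pattern of levels. It had 178 and 273 CD127posCD25neg cells, and 12.4% and 15.8% of them had at least 3 genes. Compared with cluster 5, 7 of the 9 tested genes were called lower (1.81% of 2045 genes were called higher and 4.45% lower). GZMB read 30.02 and 31.5 CPM, with log2 ratios to cluster 5 of -6.96 and -7.10. GZMM read 120 and 130 CPM, with log2 ratios of -1.17 and -1.12. GNLY read 224 and 200 beside 1155 and 1255 in cluster 5, and KLRB1 238 and 180 beside 1001 and 930. There were 0.134 and 0.158 GZMB UMIs for each GNLY UMI in cluster 9, against 4.30 and 4.55 in cluster 5.

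GZMK read 85.5 CPM on day 3 (interval 60.2 to 118) and 124 on day 20 (97.1 to 157) in cluster 9, beside 50.8 and 69.1 in cluster 5. The GZMK-positive cells, 38 and 72 in CD127posCD25neg, had GZMB in 10 and 12 cases, beside 20.9% and 18.5% of all cells of those libraries. Of the GZMK-positive cells, 13 and 28 were in cluster 9, 8 and 22 in cluster 7, and 13 and 14 in cluster 5. Outside cluster 5, GZMM was found in 20 of 25 GZMK-positive cells on day 3 (80.0%, interval 59.3 to 93.2). On day 20 it was found in 31 of 58 (53.4%, 39.9 to 66.7). Over all cells of the CD127posCD25neg libraries, cluster 5 included, GZMM was found in 12.7% and 11.3%. CCR6, the chemokine receptor of type 17 cells, was called higher in cluster 9 than in cluster 5, at 113 against 2.03 and 61.3 against 1.02 CPM. TNFSF10 (the death ligand TRAIL), LTB, TCF7 and LEF1 were called higher as well, and TBX21, ZEB2, HOPX, RUNX3, PRDM1 and ID2 lower.

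Cluster 9 cells of the other sorts had little GZMK. It read 0 (interval up to 2.17) and 3.22 CPM in CD127posCD25pos on days 3 and 20, and 0 (up to 3.36) and 1.66 in Endo, far below the CD127posCD25neg values. KLRB1 was detected in cluster 9 of these 4 libraries, at 60.7 and 102 in CD127posCD25pos and at 73.7 and 123 in Endo. In CD127posCD25pos, cluster 9 held 58.9% and 61.4% of all KLRB1 UMIs. In CFSEpos the GZMK UMIs lay in cluster 1 on day 3 (11.4 CPM, in 2.85% of its cells) and in cluster 2 on day 20 (8.24, in 1.87%), the main clusters of those libraries.

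TYROBP followed neither the pattern of cluster 5 nor that of cluster 9. In CD127posCD25neg, cluster 6 held 65.2% of its UMIs on day 3 and 60.7% on day 20, at 119 and 121 CPM in 20.2% and 18.3% of cells. The other genes of the set read at most 16.9 CPM there. TYROBP-positive cluster 6 cells had another gene of the set in 12.7% on day 3 (interval 8.74 to 17.6) and TYROBP-negative ones in 10.7% (8.82 to 12.9); on day 20 the shares were 8.47% and 8.83%. TCF7, a gene of naive T cells, read 203 CPM in cluster 6 over all libraries, and HOPX 4.11. NK markers summed to 2.60 and 2.90 and monocyte markers to 6.17 and 8.38 in these cells. TYROBP and HCST are neighbours in the genome, and strand use in the counting is not stated; HCST read 227 and 240 in cluster 6, against 1342 and 1352 in cluster 5, where TYROBP was 108 and 67.1. On day 3 the TYROBP intervals of clusters 6 and 5 overlapped (107 to 132 and 88.2 to 130).

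GNLY was also high in cluster 8. This cluster, 930 cells almost all from Endo and CD127posCD25pos, had GNLY at 225 CPM (interval 208 to 244) in 17.2% of cells, with GZMB at 12.5 and GZMM at 1.89. In Endo, GNLY in cluster 8 read 244 on day 3 and 149 on day 20, and in CD127posCD25pos 120 and 298. The days thus went in opposite directions in the 2 sorts, with 1 library each.

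In CFSEpos on day 3, GNLY and GZMB came from a small group that the authors called Unk1. It had 115 cells, 2.78% of the library, of which 105 were in cluster 1 and 3 in cluster 5. These cells held 76.9% of all GNLY UMIs (625 of 813) and 62.9% of GZMB UMIs (200 of 318), but 5.93% of NKG7 and 0 of 140 GZMK UMIs. GNLY read 2056 CPM (interval 1898 to 2224) in Unk1 and 15.9 (13.7 to 18.3) in the other 4027 cells, and GZMB 658 (570 to 756) and 9.96. Both were in 38 Unk1 cells, GNLY alone in 39, GZMB alone in 14 and neither in 24. NKG7, at 46.1, and CST7, at 32.9, were far below their cluster 5 levels.

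The Unk1 cells also differed outside the set. IL7R, the gene of CD127, read 240 CPM against 7.60 in the other CFSEpos cells of day 3, HOPX 309 against 32.0, and FOXP3 85.5 against 263. IL2RA, the gene of CD25, read 497 against 638. TBX21, ZEB2 and GZMH, which were called higher in the granule-rich CD127posCD25neg cells, had no UMI in Unk1 on day 3 (interval up to 12.1 CPM each). On day 20 there were 26 Unk1 cells, and 5 of them were the 5 cluster 5 cells of that library. GNLY then read 2448 and GZMB 1513, but without those 5 cells GNLY was 2460 and GZMB 202 (interval 96.7 to 371). The GNLY level of the transferred cells therefore rested on Unk1 on both days, and the day 20 GZMB level on the 5 cluster 5 cells, which held 81.4% of its UMIs.

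**Figure D5:**
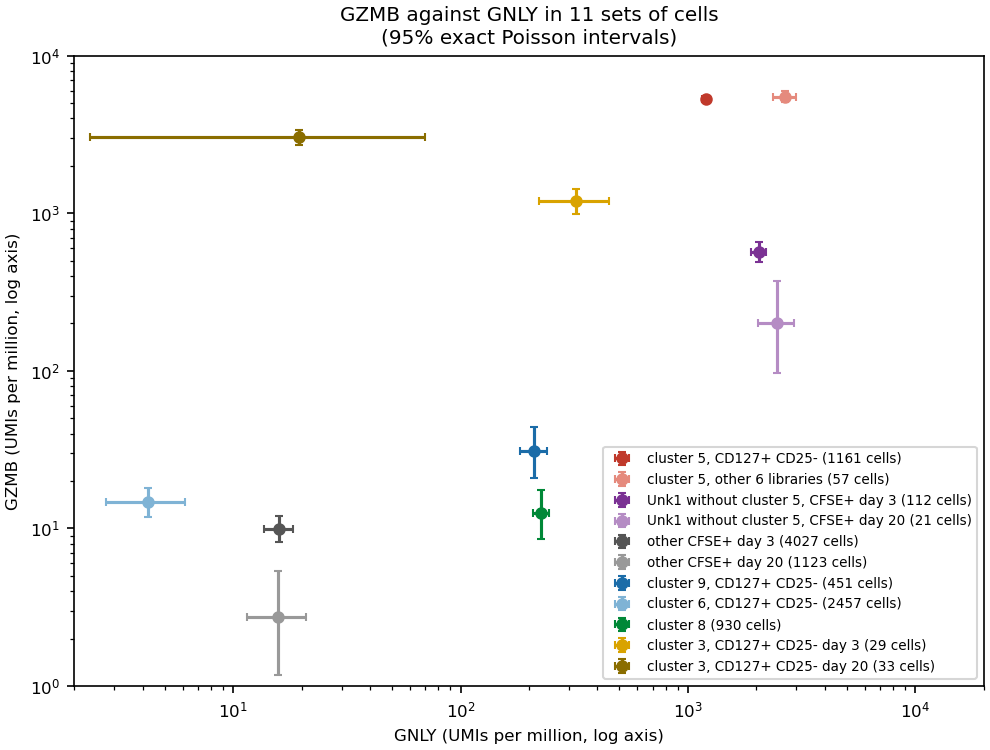
GZMB (y axis) against GNLY (x axis), both in CPM on log axes, in 11 sets of cells with exact 95% Poisson intervals. Cluster 5 lies at 1205 GNLY and 5333 GZMB in CD127posCD25neg, the Unk1 cells of day 3 without cluster 5 at 2047 and 570, and cluster 8 and cluster 9 at 225 and 210 GNLY with 12.5 and 30.9 GZMB.

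The 57 cluster 5 cells of the other 6 libraries were compared with the 1161 of CD127posCD25neg. Of these 57, 0 shared a barcode with a CD127posCD25neg cell of cluster 5 and 1 with any CD127posCD25neg cell. GZMB read 5506 CPM (interval 5069 to 5970) against 5333 (5231 to 5436), with overlapping intervals. GNLY was higher, 2668 (2367 to 2997) against 1205 (1157 to 1254), and so were TYROBP, 460 against 87.4, GZMA, 150 against 22.4, and KLRB1, 1344 against 966. GZMK read 18.8 against 60.0. NK cell markers summed to 639 and CD8 T cell markers to 554 in these 57 cells, with CD8A at 0; their part in the result was not tested. They carried 129 of the 258 GZMB UMIs of Endo on day 3 and 60.3% on day 20, and 35 of 70 and 76.3% of those of CD127posCD25pos.

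GZMA was higher on day 20 in the Endo and CD127posCD25pos cells of cluster 3, which the authors placed in their endoTreg class. In Endo it went from 3.47 CPM (interval 1.40 to 7.16) to 80.3 (66.8 to 95.8), a log2 ratio of 2.74, and was called higher (2.87% of 2229 genes were). In CD127posCD25pos it went from 16.7 (7.23 to 33.0) to 105 (80.2 to 135), a log2 ratio of 2.11, also called (1.06% of 2273 genes). These 2 calls compare 1 library with 1 library, and GZMA passed the threshold of 50 through day 20 only, so being tested and being higher are not independent. In Endo the share of cluster 3 cells with GZMA went from 0.702% (0.192 to 1.79) to 5.05% (3.35 to 7.26), so the intervals did not overlap. In CD127posCD25pos the share was 3.57% and 5.04%, with overlap, and 3 cells held 46 of the 60 UMIs on day 20.

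On day 20, 9 of the 27 GZMA-positive Endo cells of cluster 3 held 89 of its 124 UMIs. Of the 27, 14 also had GZMB, 15 CST7 and 6 FOXP3. In the endogenous effector Tregs GZMA read 4.21 CPM on day 3 and 90.7 on day 20, and GZMB 43.3 (interval 33.9 to 54.5) and 39.7 (29.7 to 51.9). The GZMB intervals of the days thus overlapped while GZMA was far higher on day 20. NKG7 in cluster 3 of CD127posCD25pos was called lower on day 20, 19.3 against 54.4, on 11 and 26 UMIs (1.28% of genes).

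A few CD127posCD25neg cells of cluster 3, 29 on day 3 and 33 on day 20, held many GZMB UMIs in few cells. They are in the authors' endoTreg class but had no UMI of FOXP3 or IL2RA. GZMB read 1195 and 3036 CPM, from 5 and 9 cells. On day 3 a single cell held 94 of the 123 UMIs, and on day 20 5 cells with at least 30 UMIs each held 298 of 313. TYROBP read 427 and 834. Monocyte markers summed to 1166 and 4899 and dendritic cell markers to 301 and 1067 in these cells, the T cell list to 2205 and 1319, and 8 and 20 of them met the criteria for doublet-like cells. The part of non-T cells in these values was not tested. The cells gave 2.39% and 5.19% of the GZMB UMIs of CD127posCD25neg, and the 5 counts of called genes between populations were the same without them.

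The genes most like the set were found over 40 sums of 1 library and 1 cluster with at least 50 cells, by the Pearson correlation with the mean log2 level of the 10 genes among 2596 genes. They were CLIC5 (0.96), RGS9 (0.94), HCST, GOLIM4 and NKG2D (0.91 each), ZEB2 (0.90), and MCOLN2, TBX21, SAMD3 and SLC11A1 (0.89 each). NKG2D is the activating receptor that signals through HCST. The 40 points share libraries and depth, and cluster 5 of the 2 CD127posCD25neg libraries stands apart. Without it, over 38 points, the correlations of these genes were 0.52 to 0.85. Ranking by Spearman correlation gave a list that shared 0 of the 10 genes, so the choice of measure decides which genes are named. Within the set the closest pair was NKG7 with CCL4L1, at 0.95 (0.82 without cluster 5). Without cluster 5 the closest was CST7 with CCL4L1, at 0.86, beside 0.93 with it. GZMB with TYROBP stood at 0.39 (0.11 without cluster 5), while GZMM with GZMK stood at 0.80 (0.70).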

How the data were processed

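The deposited table holds raw UMI counts per gene and cell of 10x 3' v2 libraries, per the labels. The submitters' processing notes name Cell Ranger 2.1.1. The genome build, annotation, cell filters and clustering method were not given in the sources used here. Other values, the cluster and class names of the cells, were deposited by the authors and used as they stand. No doublet caller was run. Counts were summed per library and cluster and given as CPM; shares of cells were also computed after thinning each cell to 1000 UMIs. Intervals are exact Poisson and exact binomial (Clopper-Pearson, 95%) and cover counting error only. The ratio rule (10 CPM added, at least 50, 2-fold) was tested on simulated data. The 10 genes and the lists were chosen with earlier results of these data known. Beyond the 10, only genes of the fixed lists and the 10 most correlated genes are named, apart from the check of the sort. Marker lists that summed lowest were platelet (0.335 to 1.11 CPM by library) and gamma delta T cell (no gene found); red cell markers summed to 127 to 1561. Doublet-like cells, 1217 in all and 9 in cluster 5, had over 2 times the median UMIs of their library, or 3 or more UMIs from the platelet, monocyte, B cell or red cell lists. Computing used Python 3.11.15, numpy 2.4.6, scipy 1.17.1, pandas 2.3.3, matplotlib 3.10.9 and, for scaling factors, edgeR 4.0.16 and DESeq2 1.42.0 in R 4.3.3. The RefSeq rhesus macaque gene table gave names and neighbours only, since the build of the counts is not known here. Some genes of the fixed lists are not reported here.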

Additional observations from a re-analysis of the deposited data

How the results depend on the processing

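No paired analysis was possible because the labels number no replicates, with 1 library for each population and day; a fit with day as a term was not run. Leaving out cluster 5 (chosen after seeing the data) took the counts of genes lower than in CD127posCD25neg from 8 to 1 in CFSEpos, 1 in Endo and 1 in CD127posCD25pos; by construction, fewer genes of the set then reached the threshold (2, 1 and 1). It reversed these log2 ratios to CD127posCD25neg: in CFSEpos, NKG7 0.20, GNLY 0.88, CST7 0.20 and CCL4L1 0.12 on day 3, and GNLY 0.69 and KLRB1 0.26 on day 20; in Endo, GNLY 0.23 and 0.44, CST7 0.18 and 0.57, and CCL4L1 0.0443 and 0.0446 on days 3 and 20; in CD127posCD25pos, GNLY 0.36 and KLRB1 0.22 on day 20. Other alternatives were TMM and median-of-ratios factors, pseudocounts of 1 and 30, no filter, and doublet-like cells left out. Matching classes, the mean of per-cell values, and CD127posCD25neg cluster 3 left out were run as well. Under all of these the counts of genes lower than in CD127posCD25neg stayed between 7 and 9. No log2 ratio was reversed by the rule above. The calls lost were GZMM in CFSEpos (pseudocount 30) and CST7 in Endo (matching classes), and GZMK was added in Endo and CD127posCD25pos without the filter. TMM factors moved the median log2 ratio of all genes by -0.32 on day 3 in CFSEpos. The share of CD127posCD25neg cells with at least 3 genes (19.1% and 18.1%) became 16.4% and 15.5% after thinning, 22.9% and 20.9% with at least 2 genes, 16.2% and 14.9% with at least 4, and 16.5% on day 20 without KLRB1 and TYROBP. NKG7 among GZMB-positive cells was 72.2% and 69.9% without thinning. GZMA and GZMK were under 50 CPM in every library and so were not tested there.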
